A study of Mus musculus with 6 samples.

Results

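Genes of Schwann cells and of neurotrophin signalling were examined in inguinal white adipose tissue (IWAT) of mice heterozygous for a premature stop codon in *Ebf2*. The set was named by gene symbol and holds 7 of the 55491 genes in the count table. *Mbp* and *Pmp22* encode myelin proteins, *Sox10* and *S100b* mark Schwann cells, *Ngfr* encodes the p75 neurotrophin receptor, *Bdnf* encodes a neurotrophin and *Th* encodes tyrosine hydroxylase. All 7 had reads and were tested, and 6 reached 10 counts in each of the libraries, *Th* being the exception.

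Schwann cells are the glia of peripheral nerves. Myelinating Schwann cells wrap single large axons in a sheath built from proteins such as myelin protein zero, myelin basic protein and PMP22, whereas nonmyelinating Schwann cells hold bundles of thin axons. The sympathetic fibres that reach fat are mostly unmyelinated and release noradrenaline, whose synthesis begins with tyrosine hydroxylase turning tyrosine into L-DOPA. Neurotrophins are secreted growth factors that keep neurons alive and shape their axons. Each binds a Trk tyrosine kinase receptor, and all bind p75. EBF2 is a transcription factor of the adipocyte lineage that is known for its part in the brown fat programme. The paper also lists impaired myelination of peripheral nerves among the reported defects of mice without *Ebf2*.

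The libraries came from 4-week-old male C57BL/6J mice, 3 of them *Ebf2+/+* and 3 *Ebf2E165X/+*, which carry the p.E165X stop codon on one allele as a knock-in made by genome editing. The allele was present in every cell of the animal, so the tissue and its nerves had the same genotype. The labels number 1 library per sample and mention no pooling, so the spread given here is that between libraries. The libraries held 106820505 to 135039488 expected counts.

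*Ebf2* itself separated the genotypes. Its reads numbered 4603, 4357 and 4611 for *Ebf2+/+* and 2635, 2863 and 2697 for *Ebf2E165X/+*. As CPM, counts scaled to a common library size with TMM factors, this was 39.0 ± 2.14 against 22.3 ± 1.04 (mean ± SD, n = 3 libraries each, as for all values here). The log2 fold change was −0.81 (SE 0.076), with an adjusted *P* of 0.0596 by edgeR's quasi-likelihood test and 1.23e-13 by DESeq2.

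The 7 genes lie on 6 chromosomes of GRCm38. *Mbp* is at chr18:82475146-82585637, *Pmp22* at chr11:63128982-63159547 and *S100b* at chr10:76253853-76261159, all on the plus strand, as is *Bdnf* at chr2:109674700-109727007. *Sox10* is at chr15:79154908-79165240, *Ngfr* at chr11:95568818-95587735 and *Th* at chr7:142892752-142931128, all on the minus strand. *S100b* overlaps *Dip2a* and *Bdnf* overlaps the antisense gene *Gm45346* on the opposite strand, and *Mbp* overlaps the processed pseudogene *Rpl21-ps8*, so their reads carry that uncertainty.

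Levels between genes were compared per kilobase of annotated exons, a scale that would not apply if the libraries were made from 3′ ends. The paper's supplement describes 3′ mRNA sequencing, though the sources differ on the library kit. *Pmp22* was the highest in *Ebf2+/+* mice at 108 ± 8.65 CPM per kb, followed by *Mbp* at 16.1 ± 1.77 and *Ngfr* at 8.12 ± 2.59. *S100b* was at 3.77 ± 0.422 and *Sox10* at 1.39 ± 0.156 CPM per kb, while *Bdnf* at 0.0527 ± 0.00746 and *Th* at 0.0195 ± 0.00506 were far lower. No neighbours in this order came within their summed SDs of each other. In plain CPM, not divided by length, the *Ebf2+/+* means had the same order, from 255 for *Pmp22* to 0.0462 for *Th*. In *Ebf2E165X/+* mice *Pmp22* to *Sox10* kept this order, and *Th*, at 0.172 ± 0.242 CPM per kb, was not separated from *Bdnf* at 0.0904 ± 0.0351.

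None of the 7 genes passed the test. A gene was called when its adjusted *P* was below 0.05 and its change exceeded 1.5-fold, and edgeR called 3 of 32664 genes (0.00918%), *Cidea*, *Gm3375* and *Gm5503*, all outside the set. DESeq2 called 98 of 32489 genes (0.302%), also with no member among them, although it gave no adjusted *P* for *Bdnf* and *Th*. At an unadjusted *P* below 0.05, 1 member (*Th*) stood beside 4.77% of all genes. Among the 6 members that reached 10 counts throughout, 0 had genotypes that did not overlap, where 13.4% of all such genes did.

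**Figure D1:**
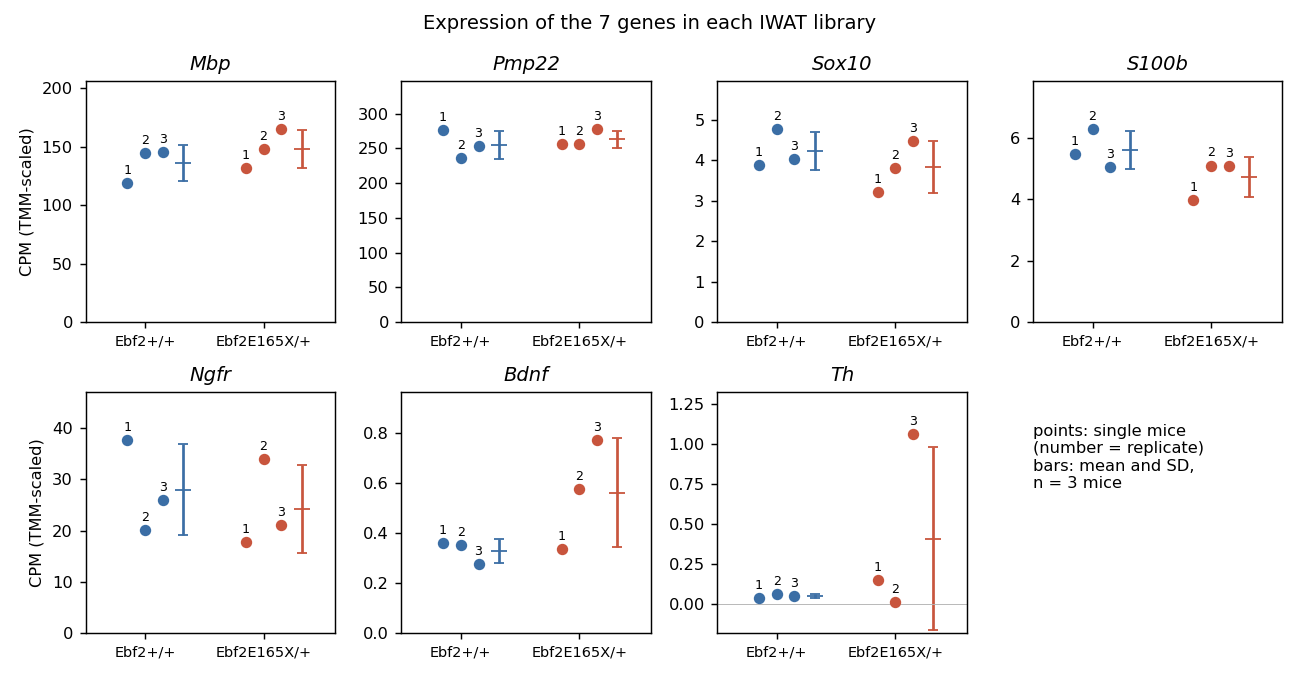
CPM of the 7 genes in each library, with the mean and SD of each genotype. The genotypes overlap in each panel, and the *Th* mean of the *Ebf2E165X/+* mice is set by 1 library at 1.06 CPM.

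Among the myelin genes, *Mbp* was at 119, 144 and 145 CPM in *Ebf2+/+* mice and at 132, 148 and 164.8 CPM in *Ebf2E165X/+* mice. The lowest library was *Ebf2+/+* and the highest *Ebf2E165X/+*, with the other four in between and mixed. The log2 fold change was 0.12 (95% CI −0.15 to 0.40, edgeR adjusted *P* = 0.783). *Pmp22*, whose protein sits in compact myelin and whose transcript is also found in other cells, was at 276, 236 and 253 CPM in *Ebf2+/+* mice and at 256, 256 and 277 CPM in *Ebf2E165X/+* mice. The first and second *Ebf2E165X/+* libraries lay near the middle of the *Ebf2+/+* range and the third just above it. The log2 fold change was 0.04 (95% CI −0.18 to 0.27, edgeR adjusted *P* = 0.918).

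The identity genes overlapped as well. *Sox10*, the transcription factor that Schwann cells need at every stage, was at 3.89, 4.77 and 4.03 CPM in *Ebf2+/+* mice and at 3.21, 3.80 and 4.49 CPM in *Ebf2E165X/+* mice. Genotype means of 4.23 ± 0.476 and 3.84 ± 0.638 CPM gave a log2 fold change of −0.14 (95% CI −0.56 to 0.28, edgeR adjusted *P* = 0.835). *S100b*, a calcium-binding protein of Schwann cells, was at 5.48, 6.27 and 5.03 CPM in *Ebf2+/+* mice and at 3.97, 5.09 and 5.08 CPM in *Ebf2E165X/+* mice. One *Ebf2E165X/+* library was low and the others lay at the lower edge of the *Ebf2+/+* range, with a log2 fold change of −0.25 (95% CI −0.63 to 0.14, edgeR adjusted *P* = 0.783). In bulk tissue, fewer cells of a type and less RNA per cell cannot be told apart.

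*Sox10* is also a gene of melanocytes, and *Mbp* of oligodendrocytes. The summed level of the melanocyte list was 23.5, 16.0 and 25.5 CPM in *Ebf2+/+* mice and 24.2, 18.0 and 22.9 CPM in *Ebf2E165X/+* mice, most of it *Mitf*, which other cells use too. *Mitf* was the 1 gene of the 6 above 0, and the other 5 were below, with a list median of −0.60 that ranged from −1.45 (without the first *Ebf2E165X/+* library) to −0.16 (without the third *Ebf2+/+* library) when 1 library was left out. Epithelial genes also differed between libraries, with sums of 69.5, 1.93 and 34.4 CPM in *Ebf2+/+* mice and 27.7, 1.55 and 5.81 CPM in *Ebf2E165X/+* mice, most of it *Krt5* in the 3 highest libraries. *Mlana*, a melanosome gene, was at −1.23 (SE 0.51) on the log2 scale, with an edgeR adjusted *P* of 0.783. The oligodendrocyte list summed to between 0.0560 and 0.173 CPM in every library, near 0. The part of melanocytes and of epithelium in the *Sox10* values was not tested.

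The wider myelin list varied together between libraries. Of 19 genes, 17 had a fold change above 0 and 2 below, with a median log2 fold change of 0.12. All 19 reached 10 counts throughout, and the 18905 genes that did so had a median of 0.03, with 56.1% above 0. None was called, and 1 (*Cnp*, an enzyme of myelin-forming cells) had an unadjusted *P* below 0.05, at 0.18 (SE 0.08) on the log2 scale. Its unadjusted edgeR *P* was 0.0489, and it was above 0.05 under each of the 12 alternatives. The third *Ebf2E165X/+* library was the highest for 15 of the 19 genes, and the first *Ebf2+/+* library the lowest for 12. Summed, the list was at 763, 818 and 859 CPM in *Ebf2+/+* mice and at 808, 881 and 982 CPM in *Ebf2E165X/+* mice, so the genotypes overlapped. Without the third *Ebf2E165X/+* library, 16 of the 19 genes were above 0 and the median was 0.05. Without the first *Ebf2+/+* library the median was 0.08, and without the first *Ebf2E165X/+* library it was 0.20. *Prx*, which encodes periaxin of the myelin sheath, was among the 2 genes most like *Mbp* across the 6 libraries, with a root mean square difference of 0.0347 on the log2 scale.

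**Figure D2:**
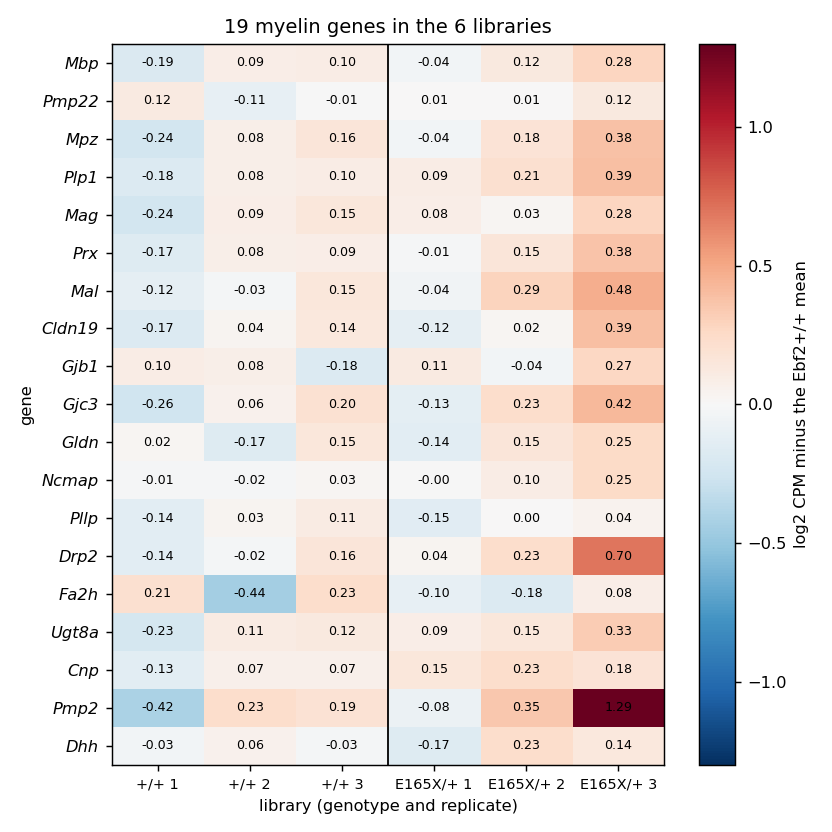
log2 CPM of 19 myelin genes in each library relative to the *Ebf2+/+* mean, with genes as rows and libraries as columns. The third *Ebf2E165X/+* library is the highest in 15 of 19 rows.

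That library also stood apart in its skeletal muscle and white adipocyte markers. Skeletal muscle genes summed to 38143 CPM in it, against 648 to 6688 CPM in the other five, and white adipocyte genes to 5949 CPM, against 8635 to 10002 CPM. Lymphocyte genes summed to 428, 628 and 653 CPM in *Ebf2+/+* mice and to 666, 746 and 684 CPM in *Ebf2E165X/+* mice. The part of muscle, of its nerves or of lymph node tissue in the values of the Schwann cell and neurotrophin genes was not tested.

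Genes of the Schwann lineage gave no common direction. Of 12 genes, 7 were above 0 and 5 below, with a median log2 fold change of 0.03, and without the third *Ebf2E165X/+* library 4 of the 12 were above 0. *Sox2*, a factor of immature Schwann cells, was counted 6, 13 and 8 times in *Ebf2+/+* libraries and 17, 17 and 27 times in *Ebf2E165X/+* libraries, with a log2 fold change of 1.06 (SE 0.44, edgeR adjusted *P* = 0.783). The most abundant gene of the list, *Matn2*, a matrix protein, was at 51.9 ± 5.39 CPM in *Ebf2+/+* mice and 53.6 ± 10.4 CPM in *Ebf2E165X/+* mice. *Erbb3*, the neuregulin receptor of Schwann cells, and *Cdh19*, a cadherin of the lineage, were chosen after their values were seen and had log2 fold changes of 0.06 (SE 0.16) and 0.01 (SE 0.14). Of 8 nonmyelinating Schwann cell genes, 6 were above 0. *Gfap*, an intermediate filament of these cells, was counted 5, 5 and 8 times in *Ebf2+/+* libraries and 45, 32 and 11 times in *Ebf2E165X/+* libraries, and did not overlap. Its log2 fold change was 2.22 (95% CI 0.85 to 3.59), with an unadjusted *P* of 0.00597 and an adjusted *P* of 0.783 by edgeR.

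Among the ligands, *Bdnf* was scarce. It was counted 43, 37 and 34 times in *Ebf2+/+* libraries and 39, 72 and 99 times in *Ebf2E165X/+* libraries. The first *Ebf2E165X/+* library lay within the *Ebf2+/+* range and the other two above it. The log2 fold change was 0.78 (95% CI −0.02 to 1.58), with an unadjusted *P* of 0.0562 and an adjusted *P* of 0.783 by edgeR. It was 0.48 without the third *Ebf2E165X/+* library and 1.04 without the first. *Ntf3* was at −0.11 (SE 0.23) on the log2 scale. *Ntf5* had 16, 18 and 20 counts against 25, 11 and 130, and its log2 fold change, 1.5004 with all libraries, was −0.03 without the third *Ebf2E165X/+* library.

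Among the receptors, *Ngfr* varied more within than between genotypes. It was at 37.7, 20.2 and 26.0 CPM in *Ebf2+/+* mice and at 17.7, 34.0 and 21.1 CPM in *Ebf2E165X/+* mice, with 1 high library in each genotype. The log2 fold change was −0.21 (95% CI −0.88 to 0.47, edgeR adjusted *P* = 0.857). *Ntrk3*, which encodes TrkC, the receptor of neurotrophin 3, had the smallest *P* in a list of 13 genes of receptors and their partner proteins. It was at 38.9, 31.5 and 37.5 CPM in *Ebf2+/+* mice and at 18.5, 21.2 and 16.0 CPM in *Ebf2E165X/+* mice, with a gap between the genotypes. The log2 fold change was −0.96 (95% CI −1.25 to −0.66), with an unadjusted *P* of 9.19e-05. The adjusted *P* was 0.200 by edgeR, so it was not called, and 2.18e-08 by DESeq2, which called it alone in that list. *Ntrk2* (TrkB, the receptor of BDNF) was at −0.07 (SE 0.12), with overlapping genotypes.

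**Figure D3:**
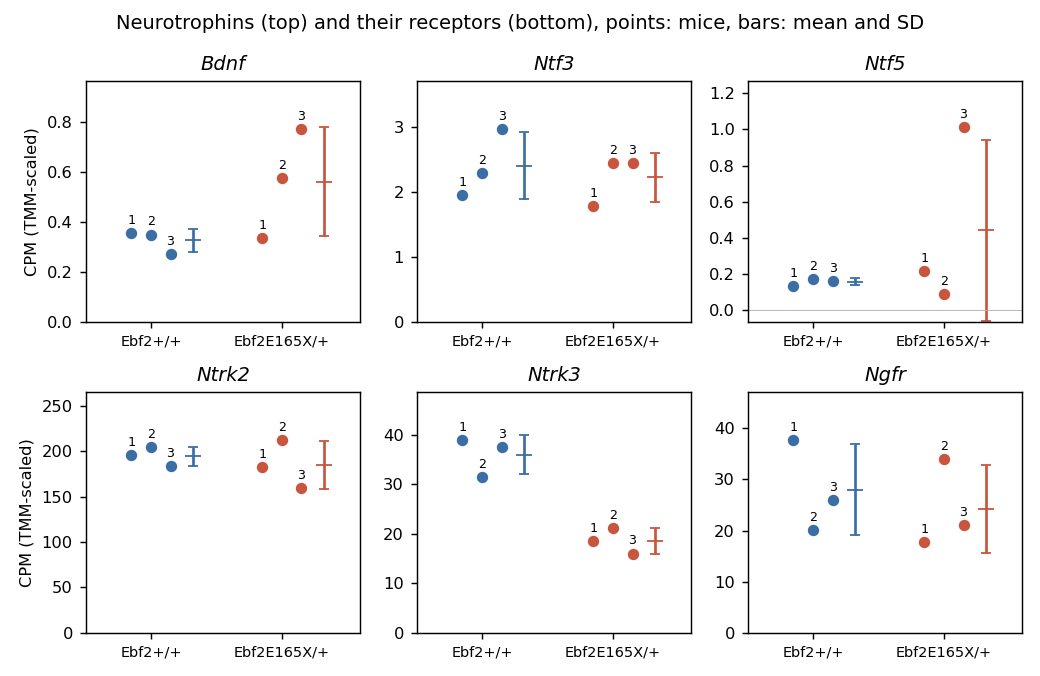
CPM of 3 neurotrophins (top) and 3 receptors (bottom) in each library, with the mean and SD of each genotype. *Ntrk3* shows 31.5 to 38.9 CPM in *Ebf2+/+* and 16.0 to 21.2 CPM in *Ebf2E165X/+* mice.

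Growth factors of the GDNF and neuregulin families, which also act on nerves and Schwann cells, were listed with their receptors, and 8 of these 16 ligand and receptor genes were above 0. *Nrg4*, a neuregulin made by fat, was the most abundant of them at 41.6, 39.8 and 40.7 CPM in *Ebf2+/+* mice and 38.1, 29.0 and 19.6 CPM in *Ebf2E165X/+* mice, without overlap. Its log2 fold change was −0.49 (SE 0.21, edgeR adjusted *P* = 0.783). It was −0.28 without the third *Ebf2E165X/+* library, the one with the lowest white adipocyte sum, and the part of adipocyte content was not tested. Of 14 axonal genes, 7 were above 0 and none had an unadjusted *P* below 0.05. For comparison, all 9 thermogenic adipocyte genes were below 0, 1 of them called by edgeR (*Cidea*, adjusted *P* = 0.00462, and 0.0565 without the second *Ebf2+/+* library) and 2 by DESeq2 (*Cidea* and *Ucp1*). The log2 fold change of *Cidea* was −3.24 with all libraries and −3.21 without the second *Ebf2+/+* library. The thermogenic list summed to 224, 280 and 269 CPM in *Ebf2+/+* mice and to 72.0, 69.3 and 175 CPM in *Ebf2E165X/+* mice. The third *Ebf2E165X/+* library was the highest of all for 3 of the 9 genes. *Cpt1b* was at 8.16, 4.92 and 71.6 CPM in *Ebf2E165X/+* mice, whereas *Cidea* was at 7.97, 9.61 and 13.2 CPM. That library also had the highest muscle markers, and the part of muscle in the sum was not tested.

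*Th* was near the limit of detection. It was counted 4, 6 and 6 times in *Ebf2+/+* libraries and 17, 1 and 136 times in *Ebf2E165X/+* libraries. One library held nearly all of the *Ebf2E165X/+* reads, and another held fewer than any *Ebf2+/+* library. The log2 fold change of 3.11 (95% CI 0.12 to 6.11) had an unadjusted *P* of 0.0450 and an adjusted *P* of 0.783 by edgeR, and it was 0.72 without the third *Ebf2E165X/+* library. That library is the one with the highest muscle markers.

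Genes of catecholamine synthesis, storage and breakdown had fold changes in both directions, and none was called by either tool. Of 18 with reads, *Th* included, 6 were above 0 and 12 below. An unadjusted edgeR *P* below 0.05 was found for 3 of the higher genes (*Th*, *Ddc* and *Slc18a2*) and 2 of the lower (*Qdpr* and *Maob*), where 4.77% of all genes had one. *Ddc*, which turns L-DOPA into dopamine, and *Maob*, a monoamine oxidase, were named after their values were seen. *Ddc* was counted 88, 82 and 106 times in *Ebf2+/+* libraries and 107, 146 and 194 times in *Ebf2E165X/+* libraries, with a log2 fold change of 0.61 (SE 0.24, edgeR adjusted *P* = 0.783). *Maob* was at −0.32 (SE 0.11, edgeR adjusted *P* = 0.783) on the log2 scale, and at −0.20 without the third *Ebf2E165X/+* library. *Slc18a2*, a vesicular monoamine transporter, was at 3.55, 3.26 and 3.51 CPM in *Ebf2+/+* mice. In *Ebf2E165X/+* mice it was at 4.61, 4.64 and 5.11 CPM, without overlap. Its log2 fold change was 0.48 (SE 0.14), with an adjusted *P* of 0.783 by edgeR and 0.0325 by DESeq2, below the fold threshold. *Qdpr*, which regenerates the cofactor of tyrosine hydroxylase, was at 72.0, 64.9 and 65.4 CPM against 55.5, 54.1 and 54.2 CPM, with a log2 fold change of −0.30 (SE 0.07) and an adjusted *P* of 0.697 by edgeR and 0.0321 by DESeq2, also below the fold threshold. *Dbh*, the enzyme that makes noradrenaline from dopamine, and *Npy*, a peptide of sympathetic neurons, were chosen after their values were seen and had at most 4 counts in any library. The cell bodies of sympathetic neurons lie in ganglia outside the tissue.

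The genes most like each member were sought among 18904 genes (18905 for *Th*) by the root mean square difference of centred log2 CPM over the 6 libraries. They were *Oas1c* for *Mbp* (0.0294), *Psma5* for *Pmp22* (0.0209), *Map1lc3a* for *Sox10* (0.0329) and *Gm13666* for *S100b* (0.0600). *Ngfr* was nearest to *1700034P13Rik* (0.132) and *Bdnf* to the immunoglobulin gene *Igkv2-137* (0.114). *Th* had no close companion, the nearest being *Cnksr1* at 0.452. With so many genes and 6 libraries, this likeness is a description.

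The *Th* promoter is shown because it was the one among 14 RefSeq promoters of 5 members that held a cAMP response element, the letters TGACGTCA, which 1.79% of 32851 promoters hold. It is given 5′ to 3′ on the minus strand of GRCm38.p6, chr7:142899996-142900245, as the 250 bases before the RefSeq start, with the element in capitals. This start lies inside the annotated span of *Th* given above, whose upstream end is at 142931128.
Th: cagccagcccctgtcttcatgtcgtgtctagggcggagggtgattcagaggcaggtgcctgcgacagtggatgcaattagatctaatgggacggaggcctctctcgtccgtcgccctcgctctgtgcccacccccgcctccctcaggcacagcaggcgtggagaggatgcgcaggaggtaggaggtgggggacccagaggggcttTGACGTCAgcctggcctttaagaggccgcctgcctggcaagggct
The element spans bases 45 to 38 before the start. For the EBF family, the full palindromic site was searched first and was in 0 of the 14 promoters and in 0.904% of all. The same site without its last base, TCCCNNGGG, was searched after that result was seen and was in 1 of the 14, that of *S100b*, and in 6.56% of all. Both strands were searched. A match is a description of the letters and not of binding.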

How the data were processed

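The authors deposited expected counts per gene (RSEM 1.3.3 with STAR 2.7.8a, reads trimmed with cutadapt 4.8, GRCm38, per the submitters' processing notes). The sources differ on the library kit, and strand use in counting is not given in the sources used here, so reads of *S100b* and overlapping *Dip2a*, *Bdnf* and antisense *Gm45346*, or *Mbp* and the pseudogene *Rpl21-ps8*, cannot be told apart. Counts were tested as deposited with edgeR 4.0.16 in R 4.3.3 (TMM scaling, quasi-likelihood test, genotype as the only term, every gene with a count of 1 or more somewhere, Benjamini-Hochberg adjustment over all genes). DESeq2 1.42.0, limma-voom (limma 3.58.1), other filters and scaling, a replicate block and leaving out each mouse were alternatives. The labels do not tie libraries to litters. The code was tested on simulated data.

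The members and gene lists were chosen with earlier results of these data known. Genes named were the members, *Ebf2*, the neurotrophins and Trk receptors, and in each list the called genes, the most abundant gene and the 2 with the smallest *P*, plus the 2 genes most like each member. Some of these are not reported here. Other genes are said to be chosen after their values were seen. *Erbb3* and *Cdh19* were chosen so. Motif searches were not planned: the full EBF site came first, and the shorter one was added later.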

Additional observations from a re-analysis of the deposited data

How the results depend on the processing

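None of the 7 members was called under any of the 12 alternatives. The number of genes called was 3 in the edgeR test and 98 with DESeq2, 4 with limma-voom, 2 with at least 10 counts in every library, and 1 to 11 when 1 mouse was left out (1 without the second *Ebf2+/+* mouse, 11 without the third *Ebf2E165X/+* mouse). Leaving out 1 mouse turned the direction of some log2 fold changes: *Pmp22* ranged from −0.022 to 0.091, *Ngfr* from −0.53 to 0.054, *Ntrk2* from −0.18 to 0.024, *Ntf3* from −0.26 to 0.040 and *Ntf5*, which was at 1.5004 with all libraries, from −0.032 (without the third *Ebf2E165X/+* mouse) to 1.98. Others kept their sign but moved by over 1.5 times. *Mbp* ranged from 0.019 (without the first *Ebf2+/+* mouse) to 0.20, *Sox10* from −0.27 to −0.028 (without the first *Ebf2E165X/+* mouse), *S100b* from −0.34 to −0.14, *Cnp* from 0.11 to 0.21, *Prx* from 0.069 to 0.26, *Maob* from −0.41 to −0.20 and *Nrg4* from −0.74 (without the first *Ebf2E165X/+* mouse) to −0.28. *Bdnf* ranged from 0.48 (without the third *Ebf2E165X/+* mouse) to 1.04 (without the first). The cause was not tested. *Th* was at 1.35 with limma-voom and 1.99 with the replicate block, and the stricter filters gave it no value. Same-numbered mice did not deviate together in every pair (correlations 0.153, −0.278 and −0.162). With 3 mice per genotype these values cannot decide whether the numbers pair the mice, and the labels do not say. With the replicate block 2 genes were called, and the edgeR adjusted *P* of *Ntrk3* was 0.882. The log2 fold change of *Ntrk3* was −0.96 with the block, and it ranged from −1.06 to −0.86 over the 12 alternatives. With 3 mice per genotype, intervals of the scarce genes are wide.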
